A study of Mus musculus with 2 samples.

Results

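The cells described here were nonclassical monocyte-like cells, defined as sorted alveolar bone cells with transcripts of a set of 4 genes that includes Ace and Treml4. A cell barcode was taken when the genes Ace, Treml4, Eno3 and Adgre4 together gave at least 2 unique molecular identifiers (UMIs, each tagging 1 captured RNA molecule) and at least 0.04% of its UMIs. C1qa, C1qb and C1qc had to stay below 0.05% of UMIs, the cycling genes Mki67, Top2a, Birc5 and Ube2c below 0.04%, the granule genes Camp, Ltf and Ngp below 3%, and H2-Aa, H2-Ab1, H2-Eb1 and Cd74 below 1.5%. No limit was set on S100a8 and S100a9. Of 4887 barcodes with at least 200 genes and at most 5% mitochondrial UMIs, 160 met the rule, 119 of 2835 in the control library and 41 of 2052 in the library after orthodontic tooth movement (OTM). The 41 OTM cells fall short of 50, and their levels carry wider intervals.

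Nonclassical monocytes, in the mouse the Ly6C-low blood monocytes, derive largely from Ly6C-high classical monocytes and patrol the inner face of blood vessels, where they survey the endothelium and clear debris. The nuclear receptor Nr4a1 is needed for their development and survival, and the integrin Itgal and the fractalkine receptor Cx3cr1 serve their crawling and maintenance. Ace encodes angiotensin-converting enzyme, Treml4 a receptor that binds dying cells, Eno3 a glycolytic enolase of the muscle type and Adgre4 an adhesion G protein-coupled receptor of the F4/80 family.

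The study compared F4/80+CD11b+ cells from the alveolar bone around the upper left first molar of 8-week-old male C57/B6 J mice in 2 states, unloaded (control) and with a NiTi coil spring pulling that molar toward the incisors for 7 days (OTM, labelled Case). The molar was extracted, the bone was digested with collagenase, and the sorted cells were run on 10x Genomics 3' version 2 chemistry. For sequencing, 20 mice were divided over both groups, each library held cells of an unstated number of them, and no genetic change or drug was used in either group. With 1 library per condition no test was possible, so values of the libraries are given side by side with intervals that cover counting error only.

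The kept barcodes held 14493851 UMIs in control and 16472699 in OTM, with medians of 3998 and 6862 UMIs per barcode. The nonclassical cells had medians of 3715 UMIs (range 1816 to 16136) in control and 4879 (2470 to 17434) in OTM. The libraries shared 6 barcodes, 0 of which were nonclassical cells. The doublet caller Scrublet marked 1 control and 6 OTM barcodes, too few to count as a working call, and 0 of the nonclassical cells. The deposited tables of both conditions held fewer barcodes than the cells the study states, and the reason is not given in the sources used here. Transcripts of the sort markers were present, with Adgre1 (F4/80) at 110 and 135 CPM (counts per 1000000 UMIs) and Itgam (CD11b) at 114 and 131 CPM in control and OTM. Neutrophil transcripts filled much of both libraries, with a median of 2.59% of UMIs from S100a8 and S100a9 over all control barcodes and 13.8% over all OTM barcodes. Their level in the nonclassical cells is described before the comparisons, and main ratios are also given without the cells richest in them.

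Comparison cells were named from transcripts only. Classical monocyte-like cells (615 control, 486 OTM) had at least 4 UMIs and 0.15% from Ly6c2, Ccr2, F13a1 and Ms4a4c, 0 UMIs of the 4 rule genes and less than 5% S100a8 and S100a9. Neutrophil-like cells (1179 and 1009) had at least 10% S100a8 and S100a9 and 0 UMIs of the rule genes. They are called classical cells and neutrophils here, and the cells of the rule nonclassical cells.

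The rule genes lie on mouse chromosomes 11 and 17 (GRCm38, GENCODE vM21). Ace is at chr11:105967945-105989964 and Eno3 at chr11:70657202-70662513, Treml4 at chr17:48264295-48275360 and Adgre4 at chr17:55749984-55853662, all 4 on the plus strand and protein-coding. The marker Fcgr4 is at chr1:171018920-171029761 on the plus strand, and Fabp4 at chr3:10204088-10208576 on the minus strand. RefSeq promoters on GRCm38.p6, from 250 bases before to 50 bases after the start, were read for short motifs of factors known in monocytes, on both strands. The motifs were an NR4A1 element (AAAGGTCA, in 1.51% of 32851 promoters), a PU.1 core (GAGGAAGT, in 3.20%), a C/EBP motif (TTGCNNAA, in 10.8%) and a KLF box (CCCCACCC, in 9.99%). The promoters of Adgre4 and Fcgr4 are shown because they were those with a match among the rule and marker genes whose promoter was available. Capitals mark the matches, which do not overlap.
Adgre4, chr17:55749734-55750033, plus strand: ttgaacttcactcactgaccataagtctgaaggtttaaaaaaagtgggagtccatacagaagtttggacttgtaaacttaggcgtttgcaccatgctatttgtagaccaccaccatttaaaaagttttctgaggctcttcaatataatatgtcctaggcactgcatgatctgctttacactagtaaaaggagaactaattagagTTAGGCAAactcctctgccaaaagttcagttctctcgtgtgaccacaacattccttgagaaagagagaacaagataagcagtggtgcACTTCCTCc
Fcgr4, chr1:171018676-171018975, plus strand: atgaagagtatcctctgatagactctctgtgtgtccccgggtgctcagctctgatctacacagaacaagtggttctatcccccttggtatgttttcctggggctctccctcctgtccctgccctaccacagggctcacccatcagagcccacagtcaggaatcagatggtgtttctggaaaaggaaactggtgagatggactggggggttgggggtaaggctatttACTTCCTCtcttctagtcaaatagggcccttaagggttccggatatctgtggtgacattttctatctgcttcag
In Adgre4 the PU.1 core began at position 42 and the C/EBP motif at position -46 relative to the start, and in Fcgr4 the PU.1 core began at position -24, all on the minus strand. Both Ace promoters and those of Treml4, Eno3, Cd36, Nr4a1, Pou2f2 and Cx3cr1 held none of the 4 motifs in this window. The Spn promoter held a KLF box at position -67 on the minus strand. Fabp4, Gngt2, Hes1 and Itgal had no promoter in the set and were not read. These matches are a description of letters only.

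Most nonclassical cells carried few UMIs of the rule genes. The median was 3 UMIs in both libraries and the highest cell had 13 in both, while 47 control and 6 OTM cells had exactly 2. At least 2 of the 4 genes were found in 98 of 119 control and 37 of 41 OTM cells, and all 4 in 5 and 4 cells. Just inside the threshold the rule genes made up 0.0402% of UMIs in both libraries, and just outside 0.0395% in control and 0.0394% in OTM. Past both rule-gene thresholds were 166 control and 61 OTM barcodes. Of these, 23 and 11 failed the class II limit, 17 and 9 the granule limit, 5 and 0 the C1q limit and 4 and 0 the cycling limit.

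The levels of the rule genes were used by the rule and describe it. Ace was at 248 CPM (205-297, exact Poisson 95% interval) in control and 176 CPM (125-240) in OTM. Adgre4 was at 250 and 198 CPM, Treml4 at 125 and 234 CPM, and Eno3 at 258 and 135 CPM. Treml4 was the only one of the 4 that was higher in OTM.

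Several markers outside the rule were also higher in these cells than in classical cells. They were chosen with earlier results of these data known, so their levels are a description. Gngt2, a G protein gamma subunit, was at 1487 CPM in control and 1298 CPM in OTM nonclassical cells, against 242 and 171 CPM in classical cells and 49.7 and 31.4 CPM in neutrophils. Fabp4, a fatty acid-binding protein, was at 307 and 131 CPM, against 5.41 and 1.67 CPM in classical cells. Fcgr4, the activating Fc receptor for IgG2 known from this subset, was at 182 and 410 CPM, against 8.30 and 81.1 CPM. Each of these genes was higher in the nonclassical cells of both libraries, but Fabp4 was lower and Fcgr4 higher in OTM than in control. Cd36, a scavenger receptor for lipids, was at 125 and 122 CPM against 11.5 and 2.51 CPM in classical cells. Nr4a1 was at 515 and 428 CPM against 222 and 142 CPM. Itgal was at 320 and 153 CPM against 71.8 and 31.5 CPM, and Cx3cr1 at 131 and 49.6 CPM against 40.4 and 14.2 CPM. Fabp4 was not limited to these cells, since C1q-positive macrophage-like cells of the control library (47 barcodes) had 353 CPM, with Gngt2 there at 545 CPM. In OTM that group held 5 barcodes, with 0 UMIs of Fabp4.

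**Figure D1:**
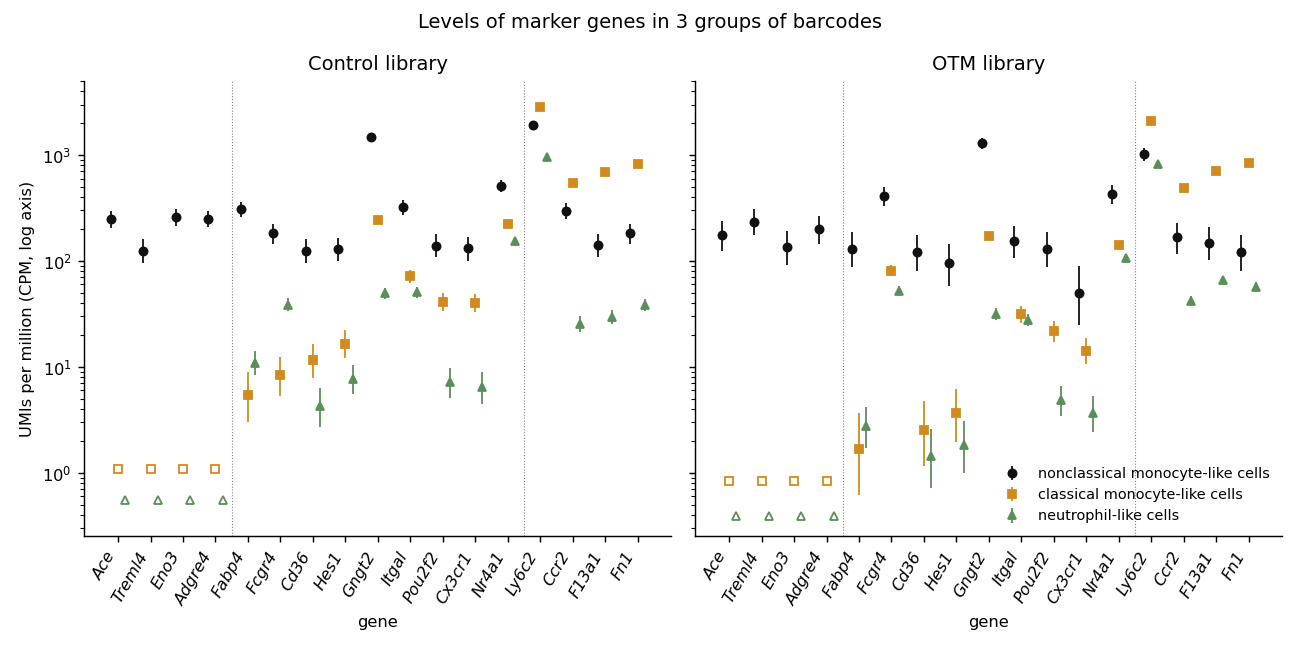
Levels of 17 genes in nonclassical monocyte-like, classical monocyte-like and neutrophil-like cells of the control (left) and OTM (right) library, as CPM on a log axis with exact Poisson 95% intervals; open symbols stand at the floor of 3 counts for genes with 0 UMIs. Left of the first dotted line are the rule genes, which are at 0 in the other groups by definition; between the lines every nonclassical marker is highest in the nonclassical cells, and right of the second line the classical genes are highest in the classical cells.

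Shares of cells with a UMI were compared after each barcode was thinned to 1500 UMIs. Gngt2 was then found in 80.7% (72.4-87.3, exact binomial 95% interval) of 119 control and 73.2% (57.1-85.8) of 41 OTM nonclassical cells, where the unthinned shares were 94.96% and 95.1%. In neutrophils, which should lack it, the thinned shares were 5.77% and 3.96%. Fcgr4 was found in 16.8% (10.6-24.8) and 41.5% (26.3-57.9) of nonclassical cells, in 1.30% and 11.3% of classical cells and in 7.04% and 7.63% of neutrophils. Unthinned, Fcgr4 was found in 36.1% of control and 75.6% of OTM nonclassical cells. Fabp4 was found in 19.3% (12.7-27.6) and 7.32% (1.54-19.9), and in 29.4% and 14.6% unthinned. Its UMIs were concentrated, with 19 of the 29 OTM UMIs in 1 cell.

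Ly6c2, the Ly6C gene that is low in nonclassical monocytes, was low in only part of the cells. It was at 1923 CPM in control and 1014 CPM in OTM nonclassical cells, 0.678 (0.632-0.726) and 0.486 (0.424-0.555) times the level in the classical cells of the same library. After thinning it was found in 58.8% and 41.5% of nonclassical cells, below the 83.4% and 82.9% of classical cells and the 66.8% and 58.8% of neutrophils. F13a1, a transglutaminase of classical monocytes, and Fn1, fibronectin, stood at 0.206 and 0.222 times the classical level in control and at 0.210 and 0.146 times in OTM. Ccr2, the receptor by which classical monocytes leave the marrow, stood at 0.547 and 0.343 times. The ratios were also read in nonclassical cells within the S100a8 and S100a9 limit set for classical cells. Ly6c2 then stood at 0.742 (0.688-0.798) times in control and 0.585 (0.498-0.683) times in OTM. Ccr2 stood at 0.676 (0.563-0.806) and 0.410 (0.270-0.599) times, and F13a1 at 0.262 and 0.313 times. These lay nearer the classical level than over all cells, while Fn1, at 0.279 and 0.0973 times, did so in control only. Ly6c2, Ccr2, F13a1 and Ms4a4c also chose the classical cells, so these ratios carry that choice.

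The nonclassical cells fell into those with few and those with many neutrophil transcripts. S100a8 and S100a9 together had a median of 0.478% of UMIs in control and 0.453% in OTM, close to the classical cells (0.401% and 0.489%), but the upper quartiles were 3.06% and 7.37% and the highest cells had 21.6% and 27.5%. Below 1% were 84 control and 26 OTM cells, between 1% and 5% were 10 and 2, and at 5% or more were 25 and 13. Cells in between were few in both libraries. The median share in neutrophils was 32.4% and 28.3%.

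**Figure D2:**
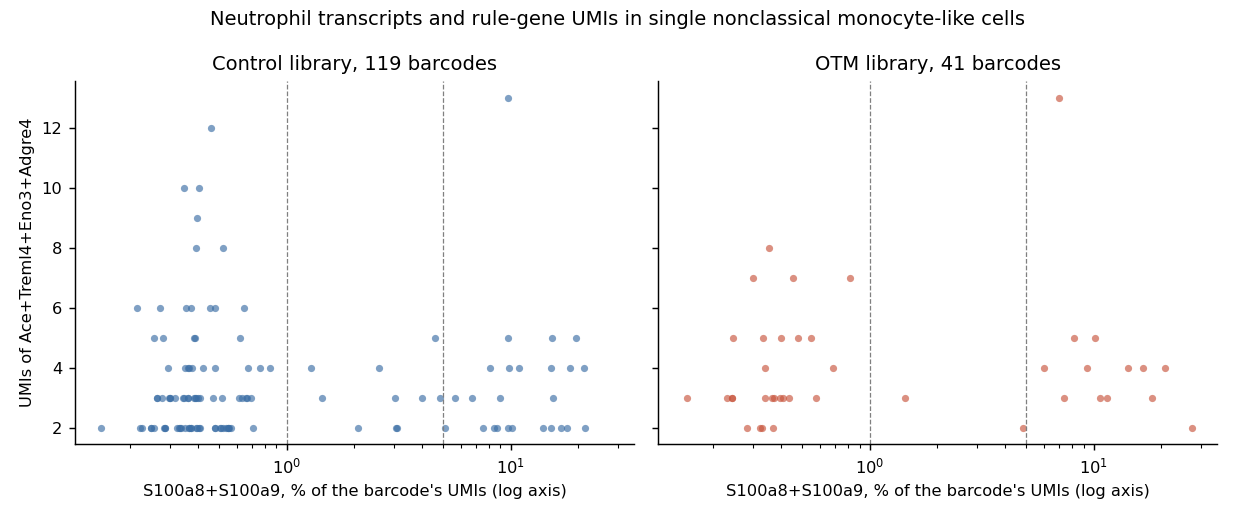
Each point is 1 nonclassical monocyte-like cell of the control (119, left) or OTM (41, right) library; the horizontal axis gives its share of UMIs from S100a8 and S100a9 on a log scale, the vertical axis its UMIs of the 4 rule genes, and dashed lines stand at 1% and 5%. The highest rule-gene count is 12 in control and 8 in OTM below 1%, and 13 in both libraries at 5% or more.

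The cells rich in neutrophil transcripts also held transcripts of nonclassical genes outside the rule. In the 25 control cells at 5% or more, Gngt2 was at 1294 CPM (1082-1536), Itgal at 267 CPM (176-388) and Nr4a1 at 622 CPM (478-796). In the 84 control cells below 1%, the same genes were at 1567, 331 and 445 CPM. The rule genes Adgre4 (237 against 260 CPM) and Ace (178 against 272 CPM) had to be present in both sets by the rule. In OTM, Gngt2 was at 1005 CPM (805-1239) in the 13 cells at 5% or more and at 1508 CPM (1302-1739) in the 26 below 1%. Of Gngt2, Itgal and Nr4a1 in both libraries, only Gngt2 in OTM had intervals that did not overlap. Genes of classical monocytes differed among themselves in the cells at 5% or more. Ly6c2 was found in 18 of 25 control cells, at 1264 CPM (1055-1503) against 2235 CPM below 1%, and in 12 of 13 OTM cells, at 693 CPM (529-892) against 1302 CPM. F13a1 had 0 UMIs in the 25 control cells, which allows up to 36.4 CPM by the Poisson interval, against 197 CPM (152-251) below 1%. In OTM it had 3 UMIs, at 34.6 CPM (7.14-101) against 222 CPM (148-321). Ccr2 was at 39.5 CPM (10.8-101) against 400 CPM (335-474) in control, while its OTM levels of 115 CPM (55.4-212) and 198 CPM (128-293) overlapped. Retnlg, a neutrophil transcript, was at 29222 CPM there against 895 CPM. Fcgr4 and Fabp4 did not follow one pattern, with Fcgr4 at 375 against 92.5 CPM in control but 300 against 492 CPM in OTM, and Fabp4 at 524 against 212 CPM in control but 46.2 against 198 CPM in OTM. The median Scrublet score was 0.0575 and 0.0629 at 5% or more, and 0.0413 and 0.0348 below 1%, in control and OTM. The median depth at 5% or more was 3458 UMIs in control and 6748 in OTM. Below 1% it was 3802 and 3730.5 UMIs. Whether droplets with RNA of 2 cells or free neutrophil RNA have a part in these values was not tested.

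**Figure D3:**
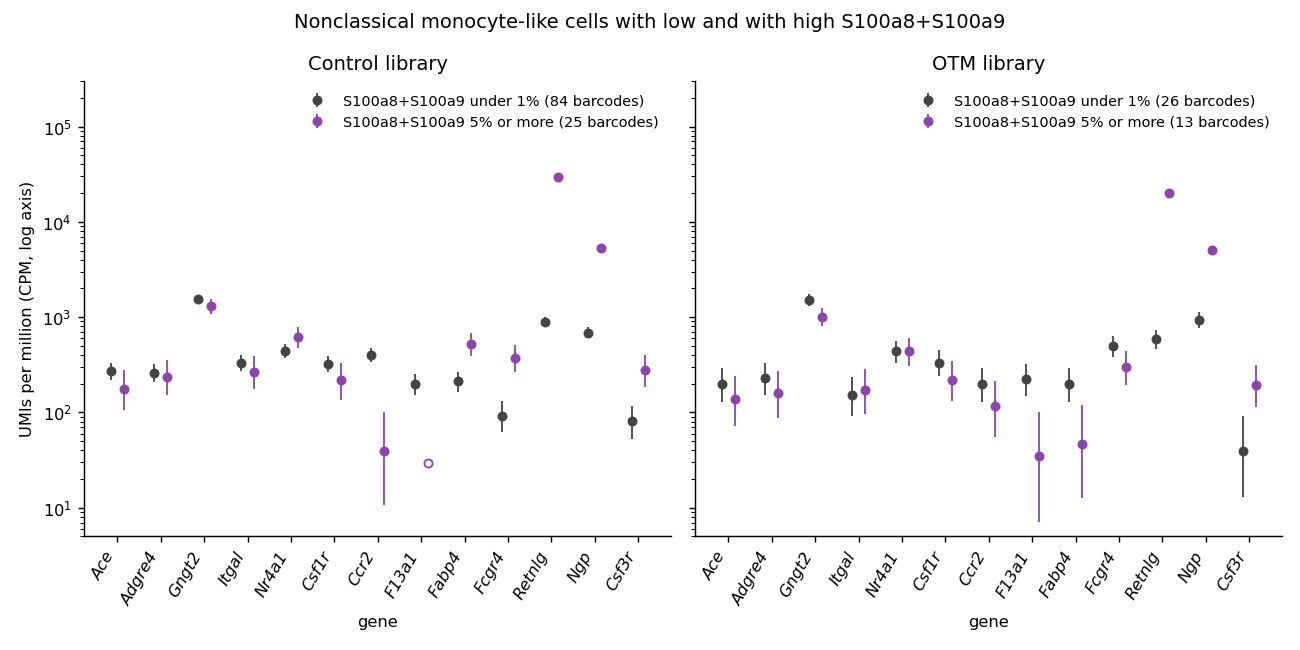
CPM on a log axis, with exact Poisson 95% intervals, of 13 genes in nonclassical monocyte-like cells with less than 1% and with 5% or more of UMIs from S100a8 and S100a9, in control (84 and 25 cells) and OTM (26 and 13 cells); the open circle marks 0 UMIs, drawn at the floor of 3 counts. Ace, Adgre4, Itgal and Nr4a1 lie close together, Retnlg and Ngp lie far apart, F13a1 is lower in the cells rich in neutrophil transcripts in both libraries, and Ccr2 has intervals apart in control only.

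A smaller number of control cells passed the rule on a single gene. Of the control cells below 1%, 17 had UMIs of 1 rule gene and 67 of at least 2. In the 17, Nr4a1 was at 173 CPM against 516 CPM, Fcgr4 at 14.4 against 113 CPM, Fabp4 at 28.8 against 260 CPM and F13a1 at 346 against 158 CPM. These 4 were chosen after their values were seen, and other genes did not follow. Ly6c2 was lower in the 17 cells (1110 against 2529 CPM), while Ccr2 (389 against 403 CPM), Pou2f2 (159 against 147 CPM) and Spn (72.1 against 60.2 CPM) had overlapping intervals. Gngt2, at 952 against 1727 CPM, was also lower in them, yet above the 242 CPM of classical cells. In OTM 3 cells below 1% had a single rule gene.

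Against classical cells of the same library, the largest differences were a mixture of monocyte and neutrophil genes. Of 1306 genes with at least 20 UMIs in the nonclassical cells of each library, 73 (5.59%) were at least 2 times higher in both libraries, and of 6147 genes with at least 20 UMIs in the classical cells of each, 246 (4%) were at 0.5 times or less in both. The cells were chosen from the same counts, so this is a description. Each count took genes by their UMIs in the group where they were to be higher. Genes with few UMIs in the other group can therefore pass the fold by counting error. Classical cells had to stay under a limit on S100a8 and S100a9, and nonclassical cells had none. Higher levels of neutrophil genes in nonclassical cells therefore carry that choice. The 15 genes with the largest ratio in the lower of the 2 libraries were Fabp4, Gm5483, BC100530, Cd36, Retnlg, Pilrb2, Hes1, Cd9, Gngt2, Stfa2l1, Il1f9, Ly6g, Mmp9, S100a9 and Mrgpra2b. Hes1, a transcription factor of the Notch pathway, was at 129 CPM against 16.6 CPM in control and at 94.7 against 3.62 CPM in OTM. Pilrb2, an activating receptor, was at 97.4 against 11.2 CPM and at 113 against 13.9 CPM. Gm5483, BC100530 and Stfa2l1 are stefin genes with near-identical copies, so their counts are uncertain, and all 3 were higher in neutrophils, as were Retnlg, Ly6g, Mmp9, S100a9, Mrgpra2b, Cd9 and Il1f9.

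Several neutrophil genes on that list were near the classical level once cells with 5% or more S100a8 and S100a9 were left out. Retnlg was then 1.32 (1.19-1.47) times the classical level in control and 0.98 (0.80-1.20) times in OTM, and Mmp9 0.87 and 1.02 times. S100a9, at 1.30 and 1.06 times, was set by that limit. The stefin genes stayed higher in OTM (Gm5483 6.39, BC100530 3.90 and Stfa2l1 8.84 times) but not by the fold in control (1.95, 1.42 and 1.78 times). Of the 15 genes, 6 were still at least 2 times higher in both libraries, namely Fabp4, Cd36, Pilrb2, Hes1, Cd9 and Gngt2. Cd36 was 10.5 and 50.1 times the classical level and Hes1 6.34 and 32.6 times. The number of genes at least 2 times higher in both libraries was 32 instead of 73. By the same rule of size, applied after the first values were seen, the 15 leading genes were then Fabp4, Gngt2, Fcgr4, Bcl2a1d, Bcl2a1a, AF251705, Pou2f2, Ly6i, Dusp16, Pglyrp1, Gm12840, Trem3, Bcl2a1b, Nupr1 and Tgm2, of which 2 were on the first list, partly because Cd36 and Hes1 had fewer than 20 UMIs in the 28 OTM cells. Pou2f2, the transcription factor Oct-2, was 3.54 (2.51-4.94) and 6.80 (3.94-11.2) times the classical level. Ly6i, a Ly6 surface protein, was 3.19 (2.46-4.12) and 11.3 (6.85-18.2) times, and Tgm2, a transglutaminase, 2.35 and 3.56 times.

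Of 14 genes known for nonclassical monocytes, outside the rule, that could be compared, 10 were at least 2 times higher in both libraries, beside 5.59% of all genes. They were Fabp4, Fcgr4, Nr4a1, Itgal, Cd36, Pou2f2, Gngt2, Pglyrp1, Ceacam1 and Hes1. The list was chosen with earlier results of these data known, so the count describes the cells and does not test what they are. Pglyrp1, a peptidoglycan-recognition protein that neutrophils also make, was 4.39 and 9.91 times the classical level, and 2.86 and 5.93 times with the S100 limit. Spn, the sialoglycoprotein CD43, had too few OTM UMIs (9) to be counted, at 3.96 (2.43-6.38) and 6.93 (2.79-15.8) times, and 4.06 (2.39-6.75) and 2.53 (0.287-10.3) times with the S100 limit. Clec4a1 (1.95 and 1.63 times), Clec4a3 (1.98 and 1.69), Klf2 (1.60 and 2.00) and Ear2 (1.19 and 1.08) missed the fold in at least 1 library. Cd300e, a receptor of mature monocytes, had 21 UMIs in control and 7 in OTM nonclassical cells, against 0 and 2 in the larger groups of classical cells. The anti-apoptotic Bcl2a1 genes, near-identical copies whose counts are uncertain one by one, were all 3 higher, from 4.29 (Bcl2a1b) to 4.76 (Bcl2a1d) times in control and from 3.14 (Bcl2a1b) to 4.01 (Bcl2a1d) times in OTM. Among transcription factors, Tcf7l2 of the Wnt pathway was at 12.9 (6.82-25.6) and 8.08 (4.04-15.5) times from 33 and 15 UMIs, and Spi1 (PU.1) 1.36 and 1.53 times.

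Of 4 lipid-handling genes that could be compared, 2 were at least 2 times higher in both libraries, beside 5.59% of all genes. These, Fabp4 and Cd36, were already counted among the genes known for nonclassical monocytes. Pparg, the receptor that drives lipid uptake genes, was 10.9 (4.04-32.3) and 16.2 (3.72-70.3) times the classical level from 13 and 5 UMIs, and the cholesterol exporter Abcg1 3.82 and 3.66 times. Apoe, the lipid carrier, stood on opposite sides of 1. It was at 2556 CPM against 930 CPM in control, 2.75 (2.56-2.94) times higher. In OTM it was at 3426 against 5137 CPM, 0.667 (0.619-0.717) times. The osteoclast genes Ctsk, Oscar, Ocstamp and Atp6v0d2 had 0 UMIs in the nonclassical cells of both libraries, where 3 counts would be 6.35 CPM in control and 13.5 CPM in OTM, while Acp5, also an osteoclast enzyme, was at 76.2 and 99.2 CPM, 4.60 and 3.04 times the classical level.

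At the other end, Saa3, an acute-phase protein, was at 78.4 CPM against 614 CPM in control classical cells and at 1100 against 12416 CPM in OTM, 0.128 (0.0895-0.177) and 0.0886 (0.0778-0.100) times. Chil3, a chitinase-like secreted protein, was at 0.337 and 0.229 times. The other genes with the smallest ratios were F13a1, Fn1, Rnase2a, Serpinb2, Mnat1, Btd, 2010320M18Rik, Tspan3 and Lmo1, and the last 7 had 0 to 2 UMIs in the nonclassical cells of each library. Rnase2a, a secreted ribonuclease, had 2 and 0 UMIs there, against 112 and 105 in classical cells. Some of these intervals reached past 1, for Serpinb2 in control (0-1.13) and for Mnat1 (0-1.26), Btd (0-1.41) and 2010320M18Rik (0-1.65) in OTM. Of 11 classical monocyte genes, 5 were at 0.5 times or less in both libraries, F13a1, Chil3, Vcan and Fn1 among them, beside 4% of all genes. Ly6c2, Ccr2, F13a1 and Ms4a4c are on this list and also chose the classical cells, so the count carries that choice. Plac8 stood at 1.33 and 1.07 times.

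The share of nonclassical cells was lower in OTM. They were 4.20% (3.49-5.00, exact binomial 95% interval) of kept control barcodes and 2.00% (1.44-2.70) of OTM barcodes, a ratio of 0.476 (0.325-0.684). Of monocyte- and macrophage-like barcodes alone, 1442 in control and 870 in OTM, they were 8.25% (6.88-9.79) and 4.71% (3.40-6.34), a ratio of 0.571 (0.390-0.821). OTM barcodes were deeper, and the rule asks for a percentage, so 63 OTM barcodes against 45 control barcodes had at least 2 rule-gene UMIs but stayed under 0.04%. When every barcode was first thinned to 1500 UMIs, the rule took 48 control and 14 OTM barcodes and the ratio was 0.403. The sort, the digestion and the number of neutrophils in each library also set these shares, and with 1 library each they cannot be told apart from the force.

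Between conditions, few genes differed by the fold used. Of 1607 genes with at least 50 UMIs over the nonclassical cells of both libraries, 52 (3.24%) were at least 2 times higher in OTM and 54 (3.36%) at 0.5 times or less. In classical cells the same genes gave 60 (3.73%) and 46 (2.86%). The median log2 ratio over all 1607 genes was -0.10.

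The 10 largest ratios were those of Saa3, Elane, Ms4a8a, Fpr1, Ifitm1, Chil3, Mrgpra2a, Il6, Mrgpra2b and Lrg1. Saa3 was at 78.4 CPM in control and 1100 CPM in OTM, 14.04 (9.90-20.4) times higher. It was found in 15 of 119 control and 28 of 41 OTM cells, and 152 of the 244 OTM UMIs came from 1 cell. Without the top cell of each library the log2 ratio was 2.95, and without the cells at 5% or more S100a8 and S100a9 the ratio was 6.19 (4.004-9.78). In classical cells Saa3 was 20.2 (19.3-21.2) times higher. Neutrophils had 35.1 CPM of Saa3 in control and 926 CPM in OTM. The nonclassical cells below 5% S100a8 and S100a9 had 83.6 and 518 CPM. The part of free RNA in the Saa3 ratio was not tested. Chil3 was at 866 CPM in 93 of 119 cells and at 3849 CPM in 38 of 41, a ratio of 4.44 (3.95-5.01), or 3.41 with the S100 limit, against 6.54 in classical cells. Ms4a8a, a 4-span membrane protein of myeloid cells, was found in 9 of 119 and in 21 of 41 cells, with a ratio of 8.13 (4.11-17.5), or 8.73 with the limit. Lrg1, an acute-phase glycoprotein, was at 129 and 433 CPM, a ratio of 3.35 (2.405-4.70), or 3.29 with the limit. In classical cells the ratio of Ms4a8a was 6.30 and that of Lrg1 13.4.

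Elane, neutrophil elastase, had 116 OTM UMIs, 111 of them in 1 cell, and a log2 ratio of -0.74 without the top cell of each library. Ifitm1 had a ratio of 4.51 over all cells and 0.873 (0.315-2.12) without the cells at 5% or more S100a8 and S100a9. Mrgpra2a and Mrgpra2b, near-identical receptors whose counts are uncertain, had ratios of 3.48 and 3.44, and with that limit 8 control against 0 OTM UMIs and a ratio of 0.997 (0.232-3.37). Fpr1, the formyl peptide receptor, was found in 10 of 119 control and 13 of 41 OTM cells, with a ratio of 5.05 (3.09-8.52), and 6.86 (1.12-72.0) with the limit from 2 control and 5 OTM UMIs. Classical cells had ratios of 4.61 for Ifitm1, 1.17 for Mrgpra2a, 1.35 for Mrgpra2b and 9.65 for Fpr1.

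The 10 smallest ratios were those of Hspa1a, Hbb-bs, Slfn4, Etv3, Ms4a4b, Hba-a1, Fabp5, Tmpo, Sap30 and Gadd45g. Hspa1a, a heat shock protein, was at 99.5 CPM in control and 18.0 CPM in OTM, a ratio of 0.181 (0.0474-0.495), against 0.142 in classical cells. The hemoglobin genes Hbb-bs (0.193) and Hba-a1 (0.294), which have near-identical copies and are uncertain one by one, were lower in classical cells too (0.300 and 0.240). Fabp5, a fatty acid-binding protein, was at 146 and 45.1 CPM, a ratio of 0.308 (0.142-0.602), against 0.508 in classical cells. Etv3 (0.222) and Gadd45g (0.345) stood at 0.315 and 0.533 in classical cells. Slfn4, at 0.213 (0.0662-0.531), and Sap30, at 0.317 (0.121-0.706), stood at 0.972 and 0.887 in classical cells, and Ms4a4b, which has close copies, at 0.252 (0.111-0.504), was higher there (2.29, 1.99-2.64), though 18 of its 76 control UMIs came from 1 cell.

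**Figure D4:**
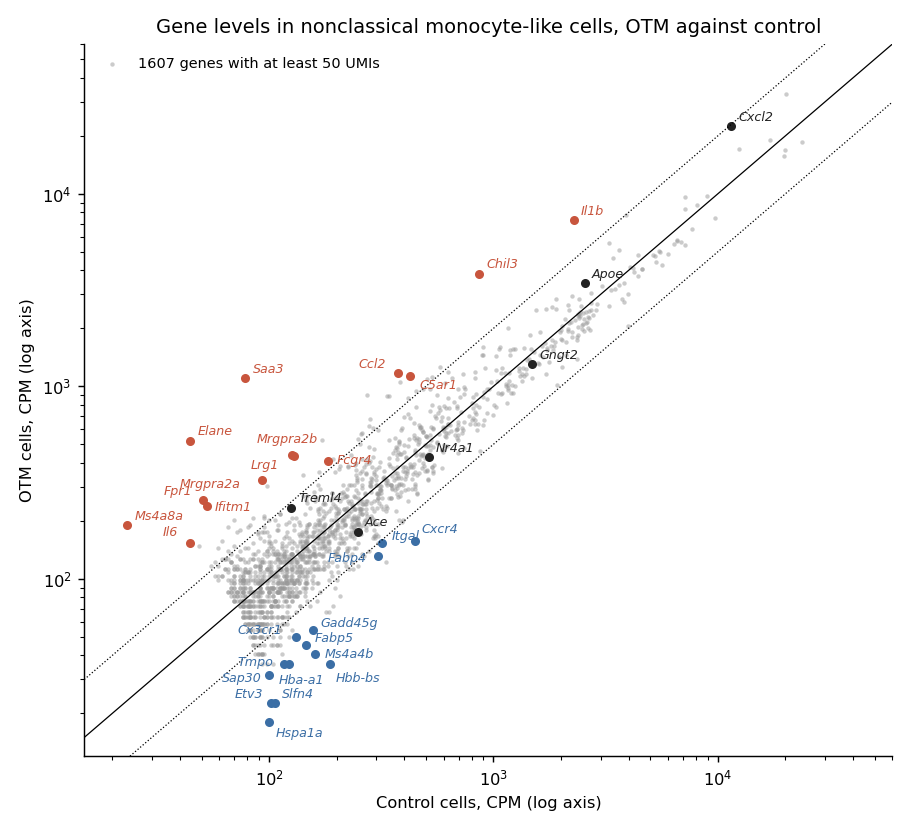
CPM of 1607 genes in the nonclassical monocyte-like cells of the control (horizontal, 119 cells) and OTM (vertical, 41 cells) library, both on log axes, with lines at ratios of 0.5, 1 and 2. Named genes at a ratio of at least 2 are red, at 0.5 or less blue and others black; Saa3 and Elane lie farthest above the lines and Hspa1a farthest below.

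Of 14 cytokine and chemokine genes tested, 6 had a ratio of at least 2 and 0 a ratio of 0.5 or less, beside 3.24% and 3.36% of all genes, and the median log2 ratio was 0.93 (1.08 in classical cells). Il1b was at 2279 CPM in control and 7302 CPM in OTM, found in 101 of 119 and 40 of 41 cells, a ratio of 3.20 (2.96-3.46), or 3.81 with the S100 limit. Il1a had a ratio of 2.81 (1.72-4.64), Tnf 2.90 (1.81-4.69), Il6 3.45 (1.94-6.25), or 2.09 (1.02-4.20) with the limit, and Cxcl10 2.29 (1.45-3.64). Ccl2, the ligand of Ccr2, had 3.10 (2.55-3.77), but 169 of its 259 OTM UMIs came from 1 cell, and with the limit the ratio was 1.31 (0.986-1.72). Cxcl2, a neutrophil attractant, was at 11420 and 22398 CPM, a ratio of 1.96 (1.89-2.04). Il1rn (0.932) and Tgfb1 (1.06) lay near 1 and Osm at 0.757 (0.608-0.937). Ccl3 and Ccl4, chemokines that attract monocytes, had ratios of 1.35 and 1.42 in nonclassical cells, with 2.01 and 2.05 under the S100 limit, against 2.08 and 3.16 in classical cells.

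Receptors and adhesion molecules differed in both directions. Of 14 tested, 2 were at least 2 times higher (Fpr1 and C5ar1) and 3 at 0.5 times or less (Cx3cr1, Itgal and Cxcr4), beside 3.24% and 3.36% of all genes. C5ar1, the receptor of the complement fragment C5a, was at 426 and 1131 CPM, found in 71 of 119 and 37 of 41 cells, a ratio of 2.66 (2.20-3.22). Cxcr4, the receptor that holds cells in marrow, was at 445 and 158 CPM, a ratio of 0.355 (0.241-0.509), and at 0.235 in classical cells. Cx3cr1 had a ratio of 0.378 (0.179-0.723) and Itgal 0.479 (0.320-0.699), next to 0.352 and 0.439 in classical cells. Itgb2, the partner chain of Itgal, had 1.61 (1.22-2.12). With the S100 limit C5ar1 stood at 3.08, Cxcr4 at 0.321, Cx3cr1 at 0.336 and Itgal at 0.420.

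Of 15 tested genes known for nonclassical monocytes, 1 was at least 2 times higher and 3 at 0.5 times or less, beside 3.24% and 3.36% of all genes, with a median log2 ratio of -0.19 (-0.81 in classical cells). Fcgr4 had a ratio of 2.25 (1.66-3.06), 3.71 (2.52-5.51) with the limit and 9.78 (6.39-15.7) in classical cells, and Fcgr3, the low-affinity Fc receptor, 1.53 (1.16-2.02). Fabp4 had 0.426 (0.275-0.638), and 0.745 (0.459-1.17) with the limit, where 1 OTM cell with 2 rule-gene UMIs held 19 of the 25 UMIs. In cells below 1% with at least 2 rule genes, Fabp4 was at 260 CPM in control and 53.1 CPM in OTM. Gngt2 (0.873), Nr4a1 (0.832), Pou2f2 (0.935) and Cd36 (0.974, 0.594-1.56) lay near 1, and Cd36 stood at 0.217 (0.0913-0.466) in classical cells. Apoe, at 1.34 (1.22-1.47), was 5.52 (5.30-5.76) times higher in OTM classical cells.

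**Figure D5:**
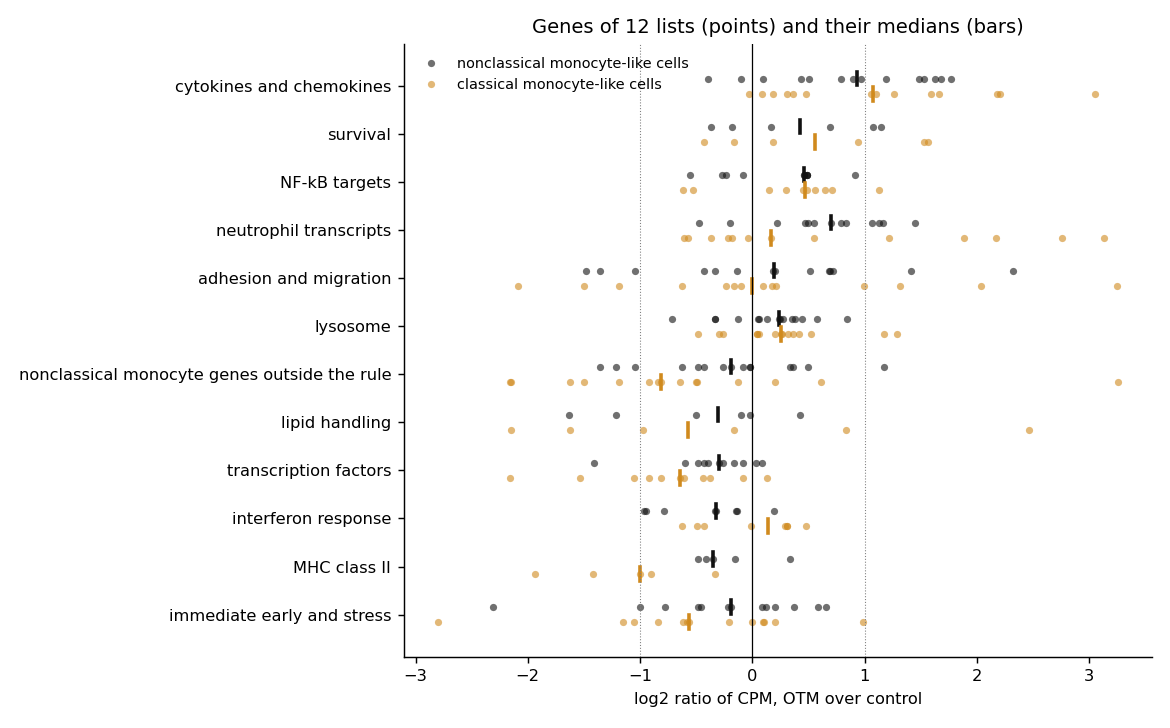
Log2 ratio of CPM, OTM over control, for the tested genes of 12 lists (points) with the median of each list (bars), in nonclassical (black) and classical (orange) monocyte-like cells; dotted lines mark ratios of 0.5 and 2. The medians of the cytokines and chemokines lie at 0.93 and 1.08, that of MHC class II at -0.35 in nonclassical and -1.004 in classical cells.

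Survival genes had 2 of 6 at a ratio of at least 2, beside 3.24% of all genes, Bcl2a1a at 2.22 (1.71-2.86) and Bcl2a1b at 2.11 (1.76-2.53), and Mcl1 stood at 0.881. Of 10 NF-kB targets and 15 lysosomal genes, 0 passed the fold in either direction, with medians of 0.46 and 0.24 on the log2 scale. Of 5 MHC class II genes 0 passed it, with a median of -0.35 against -1.004 in classical cells, although the rule itself limits this group. Of 8 interferon-response genes, 0 were at least 2 times higher and 1 at 0.5 times or less, beside 3.24% and 3.36% of all genes. Their median was -0.33, against 0.14 in classical cells. Among them Ifi27l2a stood at 0.519 (0.468-0.575), short of the fold. With the S100 limit Ifi27l2a was at 3906 CPM in control and 2388 CPM in OTM, while Isg15 was at 321 and 407 CPM. Of 13 immediate early and stress genes, 2 (Hspa1a and Atf3) were at 0.5 times or less, beside 3.36% of all genes. The median log2 ratio of this list was -0.19, against -0.56 in classical cells. Neutrophil transcripts had 4 of 13 at a ratio of at least 2 (Lcn2, Mmp8, Wfdc21 and Il1r2), beside 3.24% of all genes, a median of 0.70 against 0.17 in classical cells, and a summed level of 45015 CPM in control and 66640 CPM in OTM. With the S100 limit, none of Lcn2 (1.94), Mmp8 (1.93), Wfdc21 (1.88) and Il1r2 (1.12) reached 2. In control these 4 then stood at 1.11, 0.423, 0.969 and 1.42 times the classical level. In OTM they stood at 0.479, 0.221, 0.207 and 0.234 times, each lower than in control. The rise of these 4 in OTM was thus larger in classical cells, although the list median there was 0.17. The part of neutrophil transcripts in the other ratios was not tested beyond the values given with that limit.

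Apart from the neutrophil transcripts, several lists of other cells were at 0. All 6 dendritic cell, 4 platelet, 5 endothelial and 5 stromal and bone markers had 0 UMIs in the nonclassical cells of both libraries. Of 4 B cell markers 3 were at 0, and the 7 C1q macrophage markers, limited by the rule, summed to 46.6 and 27.0 CPM. The 6 T and NK cell markers found in the tables summed to 199 CPM in control and 76.6 CPM in OTM. Cd3d, a chain of the T cell receptor complex, was at 93.2 CPM in control and 49.6 CPM in OTM, 10.8 (6.404-18.5) and 6.59 (2.95-13.7) times the classical level, and 7.47 (4.06-13.7) and 0.982 (0.0240-5.96) times with the S100 limit. Cd3e had 12 UMIs in control and 0 in OTM, against 0 in the classical cells of both libraries. Their part in the other results was not tested. The 4 hemoglobin genes summed to 333 and 76.6 CPM.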

How the data were processed

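The authors deposited raw UMI counts per gene and cell barcode for 2 libraries of sorted mouse alveolar bone cells, on the mm10 build. The submitters' processing notes name Cell Ranger 3.0.0 and Seurat 3.0.0. Barcodes with at least 200 genes and at most 5% mitochondrial UMIs were kept (2835 of 2863 control, 2052 of 2058 OTM), with 14493851 and 16472699 UMIs. Members and gene lists were chosen with earlier results of these data known.

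Counts of each group were added up within a library and scaled to 1000000 UMIs (CPM) with exact Poisson 95% intervals. Ratios have exact conditional binomial intervals and shares Clopper-Pearson intervals, and all cover counting error only. Log2 ratios used a prior of 0.5 UMI, and a count of 0 was set against a floor of 3 counts. With 1 library per condition no p-value was computed. Ratios between conditions were read for genes with at least 50 UMIs over the nonclassical cells of both libraries, and ratios to classical cells for genes with at least 20 UMIs in each library. Genes named were the 10 largest and 10 smallest ratios between conditions, the 15 largest and 10 smallest against classical cells, and members of the lists. Thinning drew 1500 UMIs per barcode. Doublets were scored with Scrublet in scanpy 1.11.5 and not removed. The calculations, tested on simulated data, ran in Python 3.11.15 with pandas 2.3.3, scipy 1.17.1 and numpy 2.4.6. R 4.3.3 with edgeR 4.0.16 gave TMM scaling as an alternative, with no test. Coordinates are from GENCODE vM21, matched by Ensembl ID, and promoters from RefSeq on GRCm38.p6. Alternatives changed the rule, the depth, the S100a8 and S100a9 limit, the scaling and the minimum of UMIs. Results for some genes are not reported here.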

Additional observations from a re-analysis of the deposited data

Results flagged for a closer look

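In 9 genes the ratio of OTM to control lay on opposite sides of 1 in nonclassical and classical cells, with neither counting interval reaching 1. The difference was not tested, since each condition is 1 library. Cd74, the invariant chain of MHC class II, had a ratio of 1.26 (1.11-1.42) in nonclassical and 0.537 (0.501-0.575) in classical cells. It counts toward the class II limit of the rule, which the classical cells also had to meet. All Cd74 ratios therefore carry that limit. Pglyrp1 had 1.26 (1.10-1.44) and 0.557 (0.499-0.621), and Ier2, an immediate early gene, 1.30 (1.09-1.54) and 0.654 (0.609-0.702). B2m, the light chain of MHC class I, had 1.09 (1.03-1.15) and 0.937 (0.916-0.958), and Retnlg 1.17 (1.10-1.23) and 0.882 (0.834-0.932). In the other direction, Ms4a4b had 0.252 (0.111-0.504) and 2.29 (1.99-2.64), Osm, a cytokine of the interleukin 6 family, 0.757 (0.608-0.937) and 1.06 (1.01-1.12), and Plac8 0.852 (0.801-0.906) and 1.06 (1.04-1.08). Elane had 11.8 (7.34-19.7) and 0.806 (0.757-0.858), with 111 of its 116 OTM UMIs in 1 nonclassical cell. Without the cells at 5% or more S100a8 and S100a9, Retnlg stood at 0.655 (0.521-0.816), Plac8 at 1.04 (0.968-1.11), Osm at 0.825 (0.624-1.08), Pglyrp1 at 1.15 (0.930-1.42) and Cd74 at 1.48 (1.29-1.71).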

How the results depend on the processing

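No paired analysis was possible because each condition has 1 library. The share ratio of OTM to control stayed below 1 in the 13 alternatives run for it, from 0.345 without Treml4 in the rule to 0.672 with at least 3 rule-gene UMIs. The number of control cells, 119, was 72 with at least 3 UMIs, 78 without Ace, 79 without Adgre4 and 48 after thinning. Their 4.20% was 2.54%, 2.75%, 2.79% and 1.69% there, 3.39% without Treml4, 3.17% without Eno3, 3.32% and 2.96% with S100a8 and S100a9 under 5% and under 1%, and 3.46% with at least 2 rule genes. The 41 OTM cells were 27 without Ace, 24 without Treml4, 14 after thinning and 26 under 1%. Their 2.00% was 1.32%, 1.17%, 0.682% and 1.27% there, 1.36% without Adgre4 and under 5%, and 3.03% with at least 200 genes per 1000 UMIs. These alternatives remove cells or change the denominator by construction.

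Between conditions, the 52 genes higher and 54 lower became 30 and 23 after thinning, 270 and 680 at a minimum of 10 UMIs and 20 and 1 at 200 UMIs. The lower genes were 32 with at least 3 UMIs and 33 under 1%. Genes of the lists, 16 higher and 11 lower, were 10 and 6 after thinning and 10 and 1 at 200 UMIs, with 23 lower at 10 UMIs. TMM scaling, a shift of 0.06 on the log2 scale, gave 67 higher and 46 lower. Against classical cells, the 73 higher genes were 32 under 5% and 27 after thinning, and the 246 lower genes 126 after thinning and 34 against MHC class II-high cells.

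Directions turned for 5 of the 20 genes with the largest and smallest ratios, and the cause was not tested. Outside these 20, the ratios of Retnlg (0.655) and Plac8 (1.04) lay across 1 under 5%. The log2 ratio of Elane was -0.66 without Ace, -0.77 without Eno3, -1.27 under 5%, -1.12 under 1%, -1.22 after thinning and -0.74 without its top cell. Ifitm1 was at -0.13 under 5% and -0.28 under 1%, Mrgpra2a at -2.63, -1.40 and, after thinning, -1.09. Thinned, Mrgpra2b was at -0.0774 and Ms4a4b at 1.15. The limit of 1%, the need for 2 rule genes and the removal of the top or deepest cell were added after seeing the data.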
